A study of Mus musculus with 28 samples.

Results

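The non-clustered delta protocadherins were followed through 28 single cells of the mouse brain. Members were taken by gene symbol from the exonic and intronic count tables, and all 8 of the genes chosen were found among the 23453 genes of the exonic table. They are Pcdh1, Pcdh7 and Pcdh9, of the delta-1 subfamily, Pcdh8, Pcdh10, Pcdh17 and Pcdh18, of the delta-2 subfamily, and Pcdh20, which is not placed in either here. The RNA came from cells of C57/BL6 or C57/BL6/N mice with no genetic change or drug treatment named for any of them. By the labels, 12 cells were neurons and 8 were astrocytes, all from primary cultures of cortex and each drawn into a pipette, and a further 8 were interneurons, which a patch clamp pipette took out of acute slices of prefrontal cortex. Libraries of the cultured cells were made with the TruSeq Nano kit and run on a NextSeq instrument, and those of the interneurons with the TruSeq Stranded kit and run on a HiSeq, so that cell origin and library type cannot be told apart. For the cultured cells the protocol text gives a male mouse 3 months old that was perfused with fixative and sectioned, which is not how a culture is made, while the study's methods describe neuron and astrocyte cultures made from embryos and grown for 2 weeks before fixation for its chromatin assay. No animal or culture was named for single cells.

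Protocadherins of this group are single-pass membrane proteins whose extracellular cadherin repeats bind the same protein on a neighbouring cell. Unlike the clustered protocadherins, each is coded by a gene of its own, and together they are known for sorting axons, shaping dendrites and regulating synapses in the developing brain. The subfamilies differ inside the cell: delta-1 members carry a motif that binds protein phosphatase 1, and several delta-2 members recruit the WAVE complex, which drives branching of actin filaments.

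The columns of both tables carry codes (BRP or F with a number) that match no sample label, so no cell type was assigned and no test between cells was made. Values are given for 3 sets of codes: 8 columns from BRP564 to BRP572, 12 columns from BRP528 to BRP543, and 8 F columns. These set sizes are those of the labelled groups, but since both astrocytes and interneurons number 8, size alone does not tell them apart. Exonic totals were 12969692 to 19798892 counts per cell in BRP564 to BRP572, 17483754 to 26770944 in BRP528 to BRP543 and 838343 to 14831505 in the F cells.

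Marker genes differed between the sets and also within them. Summed astrocyte markers (9 genes, all listed with counts in the BRP cells) had a median of 3776 exonic CPM (the gene's count over the cell's total count, times 1000000) in BRP564 to BRP572 (range 2794 to 7244), 1136 in BRP528 to BRP543 (287 to 2892) and 732 in the F cells (1.19 to 5637). In BRP528 to BRP543 much of this sum was Slc1a2, a glutamate transporter gene, whose own median was 804 CPM there and 192 CPM in BRP564 to BRP572. All other astrocyte genes of the list had the higher median in BRP564 to BRP572. Among them, Gfap was at 153 CPM beside 0.0205 in BRP528 to BRP543, Aqp4 at 1131 beside 0.981 and Glul at 225 beside 95.3. The median of 6 summed neuronal markers was 565 CPM in BRP564 to BRP572 (299 to 801), 6842 in BRP528 to BRP543 (4737 to 8469) and 3305 in the F cells (1608 to 16746). GABAergic markers were summed over 6 genes and reached 564.2 to 11673 CPM in the F cells, against 3.54 to 54.8 in BRP564 to BRP572. In BRP528 the GABAergic markers summed to 2845 CPM, the highest of its set. Glutamatergic markers, summed over 5 genes, had medians of 0.178 CPM in BRP564 to BRP572, 537 in BRP528 to BRP543 and 0.597 in the F cells. Single markers of other cell types were high in F7 and F16, though the oligodendrocyte lineage list was not high there alone. In F7 the oligodendrocyte lineage list (7 genes) summed to 3387 CPM, of which Olig1 gave 3210 and Mbp 156, and 3 of the 7 genes were at 0. Slc1a2 was at 4350 CPM in F7. In BRP564 to BRP572 the same list had a median of 972 CPM (563 to 1312), with Olig1 at 432 to 1048 CPM in all 8 cells. In BRP528 to BRP543 the median of the list was 26.8 CPM and its highest sum was 1306 CPM, in BRP529. In F16 the microglial list (4 genes) was Csf1r alone, at 2093 CPM, with C1qb, Cx3cr1 and Tmem119 at 0. Endothelial markers (3 genes) reached at most 19.7 CPM and mural and fibroblast markers (4 genes) at most 55.7 CPM in any cell. The interneuron subtype list (6 genes) had medians of 12.6 CPM in BRP564 to BRP572, 1740 in BRP528 to BRP543 and 31.7 in the F cells. The second value is nearly all Cck, with a median of 1725 CPM, while Pvalb, Vip and Npy had medians of 0 there. The part of these markers in the values below was not tested.

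Columns F11 and F12 stood apart as a pair. Pearson's r of log2(CPM + 1) between them was 0.956 over 11728 genes in the exonic table, whereas the highest of the 377 other pairs reached 0.844, and 0.967 over 7063 genes in the intronic table, where the next pair reached 0.581. Values of the F cells that move most with this pair are given with and without both.

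Pcdh8 and Pcdh10, which had the most exonic counts of the 8 genes (263348 and 121596) and different spreads over the cells, are shown by the 250 bases before their start sites, from RefSeq on GRCm38.p6. The Pcdh8 stretch is chr14:79771313-79771562 on the minus strand and the Pcdh10 stretch is chr3:45378148-45378397 on the plus strand, both written 5′ to 3′ and ending at the last base before the start. Capitals mark matches to 4 motifs searched on both strands, namely TATAAA (the TATA box), CCAAT (the CCAAT box), GGGCGG (the core of the GC box) and TGACG (the core of the cAMP response element). No match overlapped another.
Pcdh8: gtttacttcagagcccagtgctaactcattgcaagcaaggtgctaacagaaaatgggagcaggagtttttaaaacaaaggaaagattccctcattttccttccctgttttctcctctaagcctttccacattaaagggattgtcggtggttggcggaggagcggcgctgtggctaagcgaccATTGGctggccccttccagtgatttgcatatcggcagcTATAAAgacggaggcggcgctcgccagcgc
Pcdh10: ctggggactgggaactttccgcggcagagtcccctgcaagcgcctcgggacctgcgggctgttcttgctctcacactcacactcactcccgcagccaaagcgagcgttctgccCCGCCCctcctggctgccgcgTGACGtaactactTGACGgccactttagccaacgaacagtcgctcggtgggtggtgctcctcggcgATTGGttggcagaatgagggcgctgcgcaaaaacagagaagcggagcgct
The Pcdh8 stretch has a GC content of 51.2% with 11 CpG pairs, and that of Pcdh10 has 63.2% with 22. TATAAA was found in 12.4% of 32851 promoter windows of this length and, of 7 members matched in the promoter table, in Pcdh8 alone, 30 bases before the start. GGGCGG, present in 32.7% of all windows, was found in Pcdh10, Pcdh17 and Pcdh18, and TGACG, present in 17.8%, in Pcdh9 and Pcdh10, where it occurred 116 and 103 bases before the start. CCAAT was found in 6 of the 7 members (all but Pcdh7) and in 33.8% of all windows. These matches describe letters only. The CCAAT box was the motif that the Pcdh8 and Pcdh10 stretches shared.

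Every cell held exonic counts of at least 2 members, and the median was 6 (range 2 to 7). When each cell was thinned to 800000 exonic counts to level the depth, the median was 5. By set, the median was 5 members in BRP564 to BRP572, 7 in BRP528 to BRP543 and 4 in the F cells. Pcdh10 had a count in all 28 cells, Pcdh17 in 27, Pcdh9 in 26, Pcdh7 in 23 and Pcdh8 in 21, whereas Pcdh1 and Pcdh20 had one in 10 cells each and Pcdh18 in 9. A filter of at least 10 exonic counts in at least 10 cells was passed by Pcdh7, Pcdh8, Pcdh9, Pcdh10 and Pcdh17, and not by Pcdh1, Pcdh18 and Pcdh20.

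**Figure D1:**
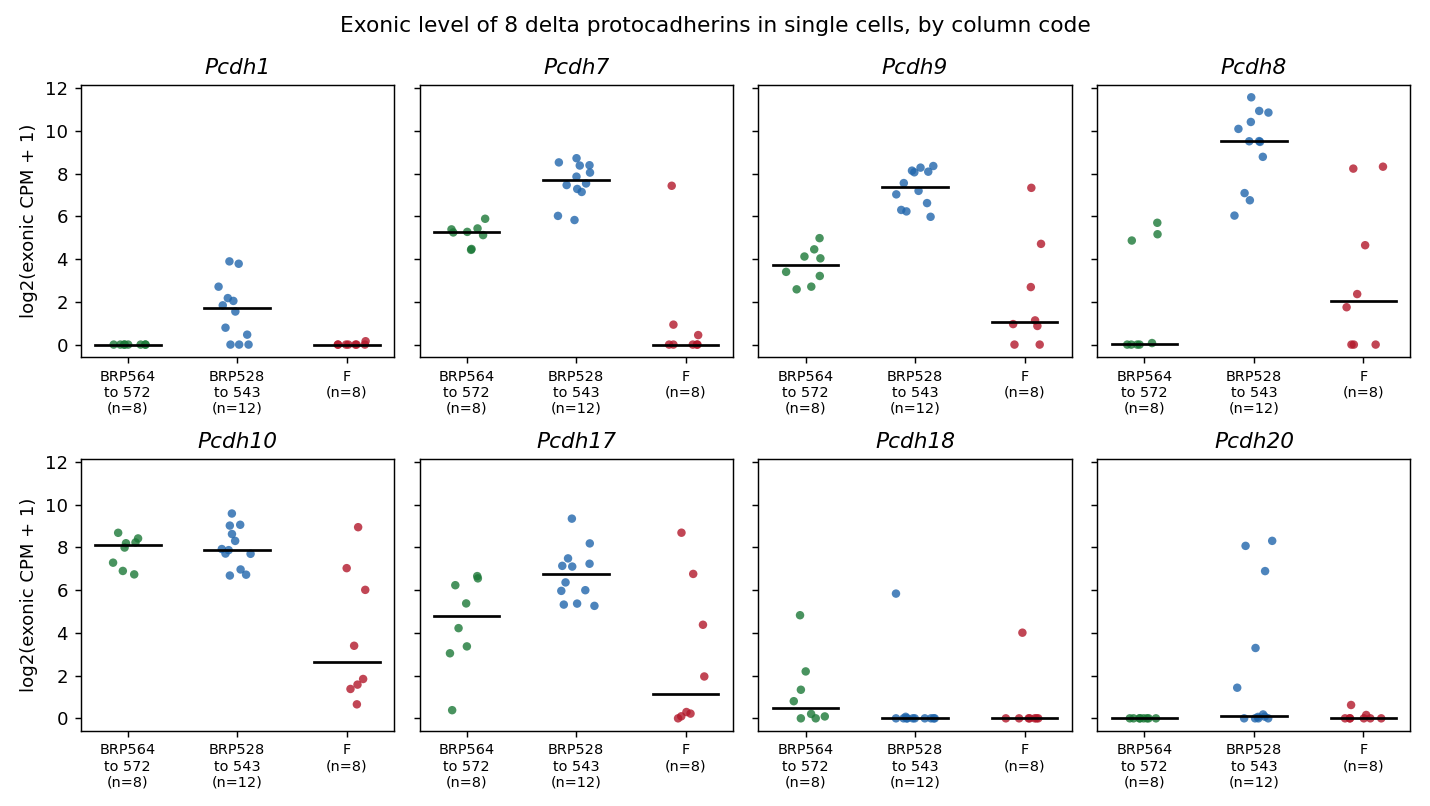
Exonic level of each gene as log2(CPM + 1) on the vertical axis, with 1 point per cell, the 3 sets of column codes on the horizontal axis and a black line at each median. Pcdh8 and Pcdh9 are higher in every BRP528 to BRP543 cell than in any BRP564 to BRP572 cell (under DESeq2 size factors for Pcdh9 alone), the Pcdh10 ranges of these sets overlap, with 3 BRP528 to BRP543 cells above the other set, and Pcdh20 is above 100 CPM in 3 cells.

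Among the delta-1 genes, Pcdh9 separated the BRP sets. Its exonic level was 5.01 CPM at the lowest, 12.5 at the median and 30.7 at the highest in BRP564 to BRP572, and 62.3, 167 and 328 CPM in BRP528 to BRP543. The lowest cell of the second set, BRP540, lay above the highest of the first, BRP564, and the ratio of the medians was 13.3, or 7.51 under DESeq2 size factors. In the F cells the Pcdh9 level was 161 CPM in F1, 25.3 in F2 and 5.47 in F11, with a median of 1.07 and 0 counts in F7 and F12. Under DESeq2 factors, which rest on the 226 genes above 0 in all cells, the F median was 11.1 beside 11.2 in BRP564 to BRP572. On the CPM scale the F set spanned values below and above those of BRP564 to BRP572.

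Pcdh7, whose cytoplasmic tail is known to bind the chromatin protein Set, ran from 20.6 to 58.4 CPM in BRP564 to BRP572 (median 37.4) and from 56.0 to 423 CPM in BRP528 to BRP543 (median 209). Only BRP534, at 56.0 CPM, fell below the top of the other set, at 58.4 CPM in BRP566, and the medians stood in a ratio of 5.58, or 3.66 under DESeq2 factors. One F cell, F1, held 172 CPM of Pcdh7, F11 and F2 held 0.911 and 0.361 CPM (4 and 2 counts), and the remaining 5 F cells held 0 counts. F1 was thus the F cell with the most Pcdh7 and also the most Pcdh9.

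Pcdh1, which is known for its binding to Smad3 in airway epithelium, was the scarcest member, with 946 exonic counts in all. It was found in 9 of 12 BRP528 to BRP543 cells, with a median of 2.25 CPM and a maximum of 13.9 CPM in BRP538, and in 0 of 8 BRP564 to BRP572 cells, where 3 counts would have stood for 0.152 to 0.231 CPM in a cell. In the F cells there was 1 count, in F7. After thinning, 6 of the 12 BRP528 to BRP543 cells kept a Pcdh1 count. Counts of at least 10 were reached in 8 cells, all of them BRP528 to BRP543.

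Of the delta-2 genes, Pcdh8 had the highest level in any 1 cell and the widest range, while by the median over all 28 cells Pcdh10 was higher (208 against 58.0 CPM). Pcdh8, also called arcadlin, is induced by neuronal activity and draws N-cadherin (Cdh2) from the synaptic membrane through the kinase Taok2. In BRP528 to BRP543 its exonic level was 64.8 CPM at the lowest, 735 at the median and 3060 at the highest, in BRP541. The levels in BRP529, BRP528 and BRP534 (64.8, 107 and 136 CPM) lay below those of the other 9 cells of the set, which began at 442 CPM in BRP539. Those 3 cells carry the lowest code numbers of the set, and BRP529 also had the highest summed astrocyte markers of the set (2892 CPM) while BRP528 had the highest GABAergic markers.

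In BRP564 to BRP572, Pcdh8 was at 51.1 CPM in BRP567, 34.9 in BRP564 and 28.3 in BRP572, with 1 count in BRP571 and 0 counts in the remaining 4 cells. This set thus divided into 3 cells with 521 to 828 Pcdh8 counts and 5 cells with at most 1. In the F cells the levels were 321 CPM in F11, 301 in F12, 24.2 in F6, 4.15 in F2 and 2.36 in F24, with 0 counts in F1, F7 and F16. Without F11 and F12, the highest F value of Pcdh8 was the 24.2 CPM of F6, below every BRP528 to BRP543 cell.

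Between the BRP sets, 2 of the 5 members that passed the filter, Pcdh8 and Pcdh9, were higher in every BRP528 to BRP543 cell than in any BRP564 to BRP572 cell, and 0 were lower. Pcdh8 passed the filter through the set where it is high, with at least 10 counts in 12 BRP528 to BRP543 cells, 3 BRP564 to BRP572 cells and 4 F cells, and a set of 8 cells cannot pass a gene on its own, so the count is given as a description and nothing is read from it. Over all 10319 genes that passed the filter, 3.98% were higher in this way (411 genes) and 4.17% were lower. Under TMM scaling Pcdh7 joined them, and under DESeq2 size factors Pcdh9 alone was left. Of these 5 members 4 had a higher median in BRP528 to BRP543, as did 42.4% of all genes tested, with a median log2 ratio of 2.45 on the log2(CPM + 1) scale beside -0.33 over all genes tested, which moved to -0.16 under TMM and -1.03 under DESeq2 factors. For the F cells against either BRP set, 0 of the 5 members were free of overlap. Of all genes tested, 13.6% were lower throughout in F than in BRP528 to BRP543 and 0% higher, and 29% were lower than in BRP564 to BRP572 and 0.0485% higher.

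Pcdh10, also called OL-protocadherin, recruits the WAVE complex through Nckap1 and is needed for the growth of striatal axons. Its level ran from 106 to 411 CPM with a median of 274 in BRP564 to BRP572 and from 102 to 770 CPM with a median of 238 in BRP528 to BRP543. All 8 BRP564 to BRP572 cells lay within the range of the other set, 3 cells of which (BRP542, BRP543 and BRP535, at 520, 534 and 770 CPM) lay above them, and the ratio of the medians was 0.870. Under DESeq2 size factors the medians were 237 and 116, which leaves BRP564 to BRP572 above. In the F cells Pcdh10 was at 494 CPM in F6, 130 in F24 and 63.7 in F1, and at 0.575 to 9.54 CPM in the other 5. The cells F6 and F24 therefore reached the BRP levels while most F cells lay far below them.

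Pcdh17, known for its part in corticobasal axon contacts and presynaptic assembly, ranged from 0.303 CPM in BRP568 to 100 CPM in BRP572 (median 29.2) in the first BRP set. In BRP528 to BRP543 it ranged from 37.5 to 652 CPM (median 109), and the top cell, BRP541, was also the top cell for Pcdh8. Its medians stood in a ratio of 3.74, or 2.22 under DESeq2 factors, with overlap between the sets. Among the F cells, F16 held 413 CPM of Pcdh17, F7 held 108, F24 held 19.8 and F2 held 2.89, and the rest held at most 0.228 CPM. The F cells with most Pcdh17 were those with high Csf1r (F16) and Olig1 (F7). Both also held neuronal markers, with sums of 16636 CPM in F16 and 3163 in F7, and Gad1, at 4820 and 1092 CPM. Csf1r was the only gene of the microglial list above 0 in F16. The part of other cell types in the Pcdh17 levels was not tested.

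Pcdh18, which binds the reelin adaptor Dab1, and Pcdh20, which is known for placing layer 4 neurons in the mouse cortex, had most of their counts in few cells each. Of 1727 exonic counts of Pcdh18, the cells BRP528, BRP568 and BRP572 held 95.5%, with 56.3, 27.4 and 3.58 CPM, and F24 held 15.1 CPM. In BRP528 to BRP543 the only other count of Pcdh18 was 1, in BRP543. For Pcdh20, the cells BRP539, BRP535 and BRP536 held 98.8% of 16276 exonic counts, at 317, 269 and 118 CPM, followed by 8.81 CPM in BRP540 and 1.70 in BRP538. Among 11732 genes with at least 1000 exonic counts, 1.94% had at least as large a share in their top 3 cells as Pcdh20 and 3.34% as large a share as Pcdh18, and the median share was 45.6%. Pcdh20 was found in 0 of 8 BRP564 to BRP572 cells, where 3 counts over the set would have stood for 0.0222 CPM.

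To set the members beside each other, exonic CPM was divided by the length of exon in kilobases. On this scale Pcdh10 was the leading member in 8 of 8 BRP564 to BRP572 cells, with 45.3 to 68.6% of the summed level of the 8 genes. Pcdh8 led in 10 of 12 BRP528 to BRP543 cells, the exceptions being BRP528, where Pcdh9 led, and BRP529, where Pcdh7 did. The F cells were led by 4 members, each in a pair of cells: Pcdh9 led in F1 and F2, Pcdh10 in F6 and F24, Pcdh17 in F7 and F16, and Pcdh8 in F11 and F12. In F1 Pcdh9 held 54.0% and Pcdh7 36.9%, whereas in F7, F11, F12 and F16 the leading member held 97.6 to 99.8%. The median of the leading share was 91.3% in the F cells, or 78.9% without F11 and F12. These cells had exonic totals that were lower at the median than those of either BRP set.

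**Figure D2:**
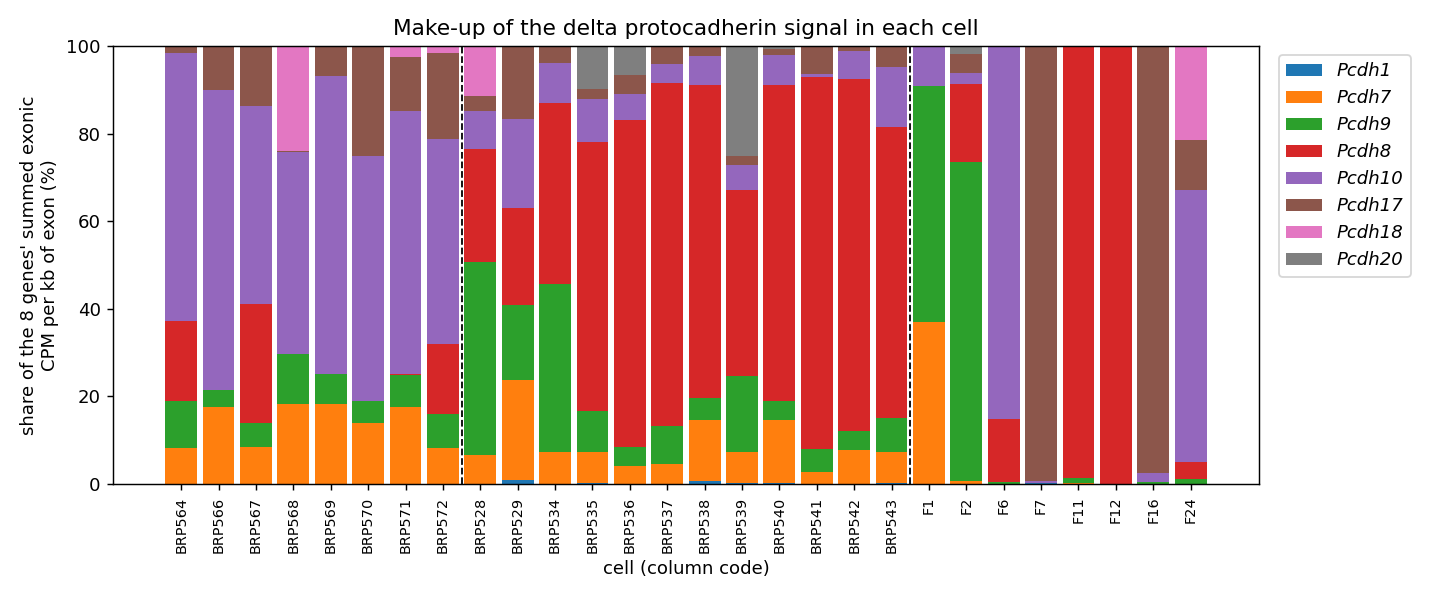
Stacked bars give, for each of 28 cells on the horizontal axis, the share in percent of the 8 genes' summed exonic CPM per kilobase of exon that each gene holds, with dashed lines between the 3 sets of codes. Pcdh10 leads in all 8 cells at left, Pcdh8 leads in 10 of the 12 in the middle, and the F cells at right are led by 4 different genes.

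In the BRP sets the rank of the members among all genes followed the same lines. By the median exonic CPM per kilobase in BRP528 to BRP543, Pcdh8 stood at the 98.8th percentile of 21777 genes with a position, Pcdh9 at 92.4, Pcdh7 at 90.8, Pcdh10 at 88.6 and Pcdh17 at 83.5. In BRP564 to BRP572 Pcdh10 stood at 88.4 and Pcdh8 at 48.4. In the F cells Pcdh8 stood at 95.5, Pcdh10 at 94.4, Pcdh9 at 92.1 and Pcdh17 at 91.3, on medians of 0.120 to 0.718 CPM per kilobase. The other members had F medians of 0, which stood at 40.3. Summed over the 8 genes, the exonic level per cell had a median of 425 CPM in BRP564 to BRP572, 1609 in BRP528 to BRP543 and 317 in the F cells.

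Intronic counts showed another order of the members. Summed over the 28 cells, the 8 genes had 568974 exonic and 604400 intronic counts, an intronic share of 51.5% (95% exact binomial interval 51.4 to 51.6, for counting error only), against 19.6% over all genes. Without F11 and F12 the members' share was 48.9%. It was 49.0% in BRP564 to BRP572, 44.0% in BRP528 to BRP543 and 90.9% in the F cells, where all genes together stood at 9.13, 18.6 and 41.1%. Without F11 and F12 the F values were 87.7% for the members and 40.0% for all genes. Summed over the members, the intronic share was thus larger than that of all genes in each set, but Pcdh9 and Pcdh7 carried most of this sum. In BRP528 to BRP543, Pcdh1 stood at 21.4%, Pcdh10 at 13.4%, Pcdh17 at 4.97%, Pcdh18 at 0.44% and Pcdh8 and Pcdh20 at 0%. In BRP564 to BRP572, Pcdh10, Pcdh17 and Pcdh18 stood at 10.1, 13.3 and 14.8%, and Pcdh8 at 0%. In the F cells without F11 and F12, Pcdh10 stood at 6.48% and Pcdh17 at 8.21%.

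Pcdh9 and Pcdh7, the members with the longest introns (870 and 405 kb outside exons in GENCODE M21), gave 53.6 and 34.5% of the members' intronic counts. For Pcdh9, 323874 of the counts were intronic and 52994 exonic, an intronic share of 85.9%, and for Pcdh7 208369 and 65537, a share of 76.1%. Other annotated genes overlap both spans, 6 for Pcdh9 (4 on the same strand) and 15 for Pcdh7 (14 on the same strand). None of these is protein coding, and their reads cannot be told apart from those of the members here. The intronic share of Pcdh9 was 94.1% in BRP564 to BRP572, 80.5% in BRP528 to BRP543 and 97.3% in the F cells. Of the F cells, F1 had 4993 intronic and 2388 exonic counts, F7 had 28735 intronic counts and 0 exonic, F24 had 21538 and 2, F16 had 12582 and 1, and F2 had 23039 and 140. The intronic counts of these 5 cells lie within the range of the BRP528 to BRP543 cells, which had 2063 to 48899. F6, F11 and F12 lay below that range, with 1745, 493 and 293. As intronic CPM, which allows for the differing totals, BRP528 to BRP543 ran from 661 to 7554. On that scale F16 lay above the range at 8868, and F6, F11 and F12 lay below it at 254, 128 and 116. For Pcdh7 in F1 the exonic counts were in excess instead, with 2555 exonic and 7 intronic counts.

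Pcdh17 depended on a pair of columns. F11 and F12 had 31634 and 19780 intronic counts of Pcdh17 with 1 and 0 exonic counts, and they held 94.3% of all its intronic counts. Its intronic share was 53.9% with this pair and 6.26% without it. Of 7063 genes with at least 1000 intronic counts, 34 (0.481%) had at least 90% of them in F11 and F12, and the median share was 0.327%. The non-coding gene 9630013A20Rik overlaps Pcdh17 on the other strand, and as the strand setting of the counting is not given in the sources used here, reads of both cannot be told apart.

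The other members had more exonic than intronic counts. Pcdh10 had 121596 exonic and 17269 intronic counts, a share of 12.4%, which was 10.1, 13.4 and 11.9% in the 3 sets and 6.48% in the F cells without F11 and F12. These shares do not allow for intron length: per kilobase outside exons Pcdh10 had 418 intronic counts, Pcdh9 had 372 and Pcdh7 had 515. Pcdh1 had 263 intronic counts, 250 of them in BRP542, and Pcdh18 had 104, 89 of them in BRP571. Pcdh8 and Pcdh20 had 0 intronic counts beside 263348 and 16276 exonic counts. In GENCODE M21 a transcript covers the whole 4538 bp span of Pcdh8 as exon and Pcdh20 has 1.16 kb outside exons. Among 274 genes with some intron, but no more than Pcdh20, and at least 10000 exonic counts, 103 (37.6%) had 0 intronic counts. Genes with no bases outside exons, such as Pcdh8, are not among them.

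**Figure D3:**
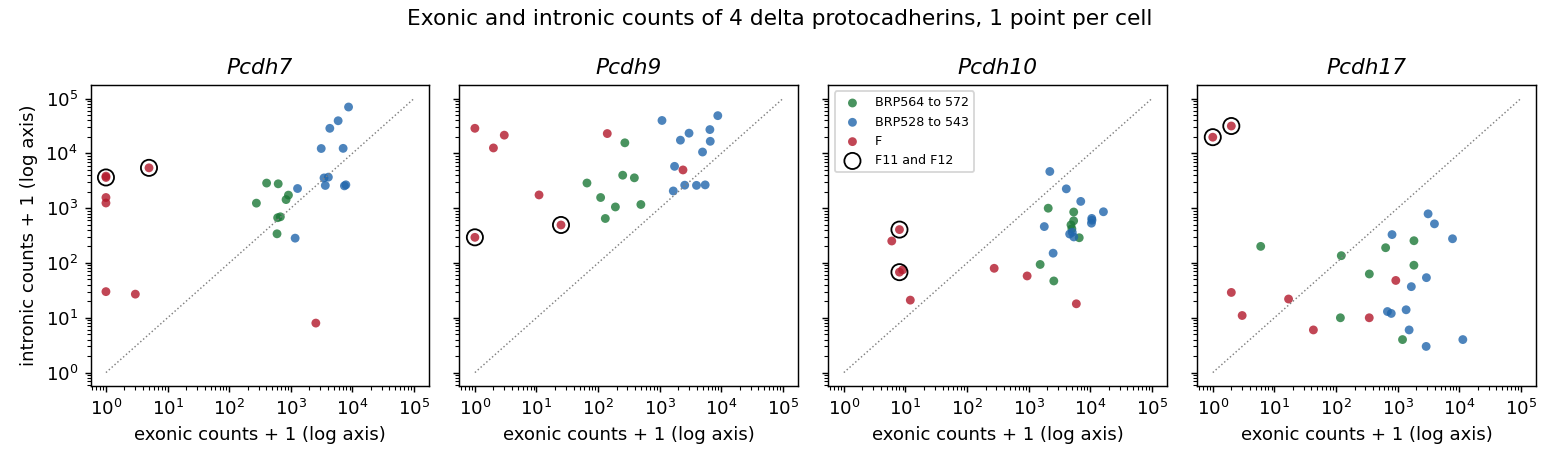
Exonic counts + 1 (horizontal) against intronic counts + 1 (vertical), both on log axes, for 4 genes with 1 point per cell coloured by set of codes, F11 and F12 circled and equal counts dotted. Pcdh9 in F cells and Pcdh17 in F11 and F12 lie at the upper left, with 12582 to 31634 intronic beside few exonic counts in 5 of these points, while Pcdh10 lies below the line in all BRP cells but BRP534.

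Members were also compared over cells by Spearman's rho of exonic CPM, as a description. Cells of a set share a kind of code, and exonic totals within the F set differed widely, from 838343 to 14831505. Over the 28 cells rho was 0.850 for Pcdh7 and Pcdh9, 0.658 for Pcdh8 and Pcdh9 and 0.657 for Pcdh7 and Pcdh8. Within BRP528 to BRP543 alone, the values were 0.03 for Pcdh7 and Pcdh9 and 0.469 for Pcdh8 and Pcdh9, so that the first relation did not appear among these 12 cells. Pcdh8 and Pcdh17 gave 0.664 there and -0.54 in the F cells. Pcdh7 and Pcdh9 gave 0.190 in BRP564 to BRP572 and 0.851 in the F cells (0.845 without F11 and F12), where 5 of 8 cells had 0 Pcdh7 counts. Of the 10 pairs, 10 were positive over all cells and 7 were negative among the F cells, whose cells are led by 4 different genes. Without F11 and F12, 7 of the 10 were again negative among 6 F cells, but Pcdh8 and Pcdh10 turned to 0.516 and Pcdh7 and Pcdh8 to -0.11.

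**Figure D4:**
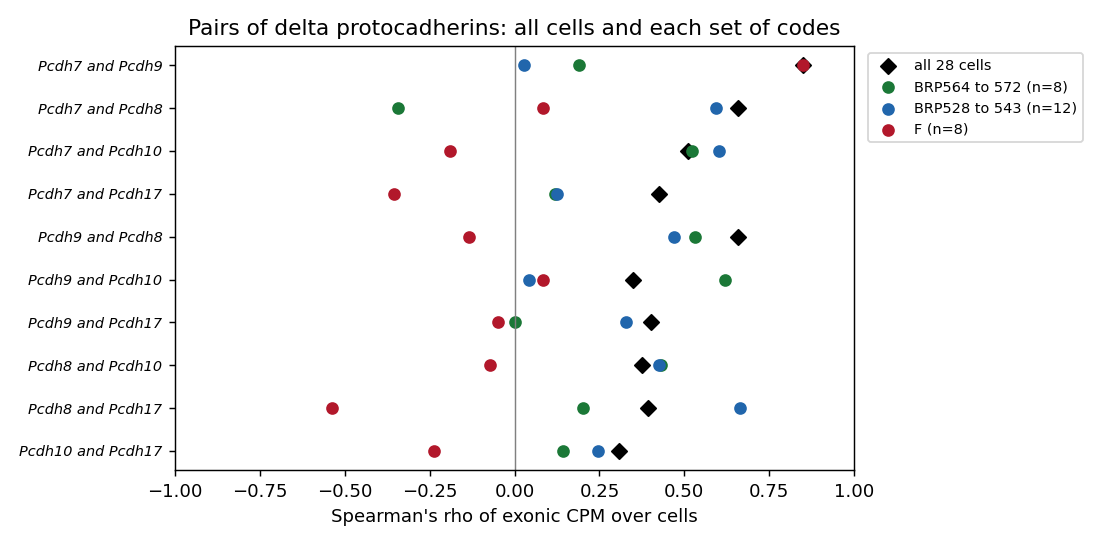
Spearman's rho of exonic CPM over cells (horizontal axis) for the 10 pairs of the 5 genes that passed the filter, with diamonds for all 28 cells and circles for each set of codes. Every diamond lies above 0, and 7 of the 10 F circles lie below it.

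The marker genes named next were picked after their values were seen. Pcdh8 went with the vesicular glutamate transporter Slc17a6 at a rho of 0.743 over 28 cells and 0.629 within BRP528 to BRP543. With the astrocyte gene Gfap, Pcdh8 gave -0.57 over 28 cells and -0.80 within BRP528 to BRP543. Gfap had a median of 0.0205 CPM in that set and was above 0 in 6 of 12 cells. It was at 115 CPM in BRP528, 7.43 in BRP529 and 5.13 in BRP534, the cells lowest in Pcdh8. Elsewhere in the set Gfap was at most 0.179 CPM, so the -0.80 rests mainly on those cells against values at or near 0. Within that set Pcdh8 gave 0.455 with Slc17a7 and 0.224 with Tbr1. Pcdh9 gave 0.725 with Gad2, an enzyme of GABA synthesis, within BRP528 to BRP543, but -0.01 with Gad1, -0.35 with Slc32a1 and -0.17 with Dlx2. For Pcdh10 the values within that set were 0.608 with Slc17a6 and -0.69 with Olig2, a transcription factor of the oligodendrocyte lineage.

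By likeness over all 28 cells among 10318 genes, the nearest to Pcdh8 was the semaphorin receptor gene Plxna4 (rho 0.904), followed by the cholecystokinin receptor gene Cckbr (0.872) and Cecr6 (0.859). Plxna4 was also nearest over the 20 BRP cells, at 0.962. Nearest to Pcdh9 were Cox4i1, a subunit of cytochrome oxidase (0.898), Gfra4 (0.885) and Map6d1 (0.880), and Map6d1 ranked first over the BRP cells. Pcdh7 was nearest to 2510009E07Rik (0.906), Asns (0.903) and Hs2st1 (0.901), Pcdh10 to Gba2 (0.795), Dab2ip (0.783) and Dgcr2 (0.779), and Pcdh17 to Ypel2 (0.754), Kirrel3 (0.733) and Jakmip2 (0.725). These values over 28 cells include the differences between the sets of codes. Within BRP528 to BRP543 alone, rho of the same pairs ran from 0.14 (Cecr6 with Pcdh8) to 0.874 (Plxna4 with Pcdh8). Over the 20 BRP cells the ranks ran from 1 (Plxna4 and Map6d1) to 770 (Jakmip2).

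Known intracellular partners were set beside the members. Of the 9 WAVE complex genes 8 passed the filter, and 2 of these (Cyfip2 and Abi2) were higher in every BRP528 to BRP543 cell than in any BRP564 to BRP572 cell, with 0 lower, where 3.98% of all genes tested were higher and 4.17% lower. Cyfip1 went the other way, with medians of 452 CPM (353 to 539) in BRP564 to BRP572 and 65.8 CPM (9.70 to 376) in BRP528 to BRP543, with overlap. Abi2 had a median of 54.8 CPM in BRP564 to BRP572 (33.6 to 103) and 309 CPM in BRP528 to BRP543 (180 to 439). Brk1, the member of this list with the highest median over all cells, had medians of 239 and 378 CPM, and Cyfip2 of 32.8 and 168 CPM, in these sets. Nckap1, the subunit that Pcdh10 binds, was at 4.83 CPM (0.272 to 18.8) and 26.1 CPM (5.72 to 155). Its ranges overlapped, as did those of Pcdh10. All 5 phosphatase and chromatin partners and all 4 other partners passed the filter, and 0 of these were free of overlap in either direction. Ppp1ca, a catalytic subunit of protein phosphatase 1, had medians of 218 and 148 CPM, its fellow subunit gene Ppp1cb of 355 and 208 CPM, and Set of 275 and 318 CPM in the same sets. Cdh2, the cadherin that Pcdh8 acts on, had medians of 214 and 53.4 CPM, and Dab1, the adaptor bound by Pcdh18, of 102 and 363 CPM, with overlapping ranges for both. Smad3, the partner of Pcdh1, was low in both sets, with medians of 11.4 and 7.93 CPM, and had 0 counts in all F cells.

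Of the other protocadherins outside the clusters, Pcdh19, a delta-2 gene on the X chromosome that is known for a form of epilepsy, had medians of 14.2 CPM in BRP564 to BRP572, 95.1 in BRP528 to BRP543 and 3.38 in the F cells. Its highest level, 486 CPM, was in F7, and in BRP541, the top cell for Pcdh8 and Pcdh17, it had 0 counts. Pcdh11x, the X-linked delta-1 gene, had medians of 0.275, 13.7 and 0 CPM, and BRP541 was its top cell at 199 CPM. Pcdh15, a tip link protein of hair cells, reached 408 CPM in F7 and at most 29.0 CPM in the BRP cells. Pcdh12 had 2 exonic counts in all 28 cells, beside 2509 intronic ones. In BRP541, Pcdh8, Pcdh11x and Pcdh17 were thus each at their highest while Pcdh19 was not found.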

How the data were processed

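Per the labels, single cells were collected by pipette, their RNA was amplified, and libraries were sequenced. Raw counts, whole numbers with no normalization, were deposited by the authors in a table over exons (23453 genes) and a table over introns (20422 genes). The submitters' processing notes name bcl2fastq 2.17, STAR 2.4.0 and the build mm10. Counting tool, annotation and strand setting are not given in the sources used here. The 28 columns match no sample label and were treated as 1 pooled sample, with 0 columns assigned to a sample. Cells are not replicates, so no test was run.

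CPM is a count over the cell's total in that table, times 1000000. Genes entered counts over all genes with at least 10 exonic counts in at least 10 cells (10319 genes). Cells were also thinned to 800000 exonic counts. Lengths and positions are from GENCODE M21 (GRCm38) by symbol, found for 92.9% of genes, and promoters from RefSeq. Named genes were the 8 members, the other protocadherins Pcdh11x, Pcdh12, Pcdh15 and Pcdh19, fixed lists of partners (of each the 3 genes with the highest median over all cells, with Nckap1 and Cyfip1 added after their values were seen) and marker genes, and the 3 genes most like each member that passed the filter. A marker gene of the lists is not reported here. Members and lists were chosen with earlier results of these data known. Python 3.11.15, numpy 2.4.6, pandas 2.3.3, scipy 1.17.1, R 4.3.3, and edgeR 4.0.16 (TMM) and DESeq2 1.42.0 (size factors) as alternative scalings only, were used. The calculations were tested on simulated data. Alternatives were other scalings, thinning, a minimum of 10 counts, coding length, intronic counts added, medians in place of sums, 1 kind of code alone, and each cell left out, and, chosen after seeing the data, F11 and F12 as 1 cell or left out and Pcdh9 left out.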

Additional observations from a re-analysis of the deposited data

How the results depend on the processing

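The median number of members with a count per cell was 6 in every cell left out in turn. The median summed level per cell was 499.5 CPM, between 479.9 and 519.1 with 1 cell left out, and 1665 when intronic counts were added to exonic ones. The members' intronic share of 51.5% lay between 48.98 and 54.5% with 1 cell left out. It was 44.0% as a median over cells, 48.9% without F11 and F12, and 35.2% without Pcdh9. Among F cells alone, rho changed sign from positive to -0.19 (Pcdh7 and Pcdh10), -0.35 (Pcdh7 and Pcdh17), -0.13 (Pcdh9 and Pcdh8), -0.0479 (Pcdh9 and Pcdh17), -0.0732 (Pcdh8 and Pcdh10), -0.54 (Pcdh8 and Pcdh17) and -0.24 (Pcdh10 and Pcdh17). The cause was not tested. By mean exonic CPM per kilobase the order was Pcdh8, Pcdh10, Pcdh9, Pcdh7, Pcdh17, Pcdh20, Pcdh18 and Pcdh1. Per kilobase of coding sequence Pcdh7 and Pcdh17 came before Pcdh9, and DESeq2 factors put Pcdh17 before Pcdh10. With F cells down to 838343 exonic counts, low levels there were least certain, and the interval of the intronic share covers counting error only. No paired analysis was possible because the columns carry no replicate numbers and no result comes from a test.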
